A study of Mus musculus with 10 samples.

Results

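The antioxidant and glutathione genes described here are 36 of the 41249 gene identifiers counted in the interscapular brown adipose tissue (iBAT) of mice on a high-fat diet (HFD). They were taken from a list of the enzymes that remove superoxide and peroxides, the thioredoxin and glutathione systems that supply them with electrons, the NRF2 and KEAP1 regulators with inducible targets, and the mitochondrial transhydrogenase Nnt. The rule used gene names and no measured value, though the members were chosen with earlier results of these data known. All 36 were found by symbol and passed the filter on low counts, a mean above 1 count per 1000000 normalized counts (CPM) over the 10 mice. RNA of whole iBAT depots from 5 male Axl KO and 5 male WT mice was sequenced, with 1 library per mouse. Axl encodes a receptor tyrosine kinase. The KO allele is a whole-body, knockout-first allele, in which a cassette within the gene disrupts the transcript, so that no cell type was targeted in particular. The mice of both genotypes shared the diet, which began at an age of 6 to 8 weeks and lasted for 24 weeks per the labels (the study's text gives a somewhat later start and a longer diet), and no group on another diet was sequenced. Library totals ran from 5431014 to 9580215 counts.

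Brown adipocytes burn fat and glucose in mitochondria that are uncoupled by UCP1, and electrons that leave the respiratory chain reduce oxygen to superoxide. Superoxide dismutases convert superoxide to hydrogen peroxide, which peroxiredoxins and glutathione peroxidases reduce to water. Peroxiredoxins are recharged by thioredoxin and thioredoxin reductase, glutathione peroxidases by glutathione and glutathione reductase, and both chains draw their electrons from NADPH. The transcription factor NRF2, held back by KEAP1 in unstressed cells, binds antioxidant response elements and induces many of these genes when thiols are oxidized.

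Genes of the thioredoxin chain, a glutaredoxin and a microsomal glutathione transferase were among the members with the lowest p-values, with levels 1.11 to 1.30 times those in WT mice, but no member passed the test across all genes. Axl KO mice had the higher fitted level for 25 of the 36 members (69.4%) and WT mice for 11, where 49.7% of the 13739 genes tested were higher in Axl KO mice. The median log2 fold change, Axl KO over WT, was 0.064 over the members and −0.000783 over all genes tested. In edgeR (quasi-likelihood test, p adjusted by Benjamini-Hochberg over all genes tested), 0 of the 36 members had an adjusted p under 0.05 (smallest 0.572), and only 1 gene of those tested (0.00728%), Axl itself, passed. DESeq2, an alternative test, also called 0 members (smallest adjusted p = 0.352) and 9 genes in all (0.0696% of the 12937 to which it gave an adjusted p). At an unadjusted p under 0.05 stood 6 members (16.7%) in edgeR and 6 in DESeq2, against 8.38% of all genes tested in edgeR and 6.93% in DESeq2. Of those 6, the genes Txn1, Txnrd1, Prdx1, Glrx and Mgst1 were higher and Gsta3 was lower in Axl KO mice, where 4.52% of all genes tested were higher and 3.86% lower at that threshold. The groups did not overlap for 1 member, Mgst1 (2.78% of the members), and for 1.36% of all genes tested. The 95% interval of the log2 fold change lay within −0.5 to 0.5, a change of at most 1.41-fold either way, for 28 of the 36 members. The other 8 were Gpx3, Gpx7, Gpx8, Glrx, Mgst3, Gsta3, Nqo1 and Nnt, for which the intervals left room for larger changes.

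**Figure D1:**
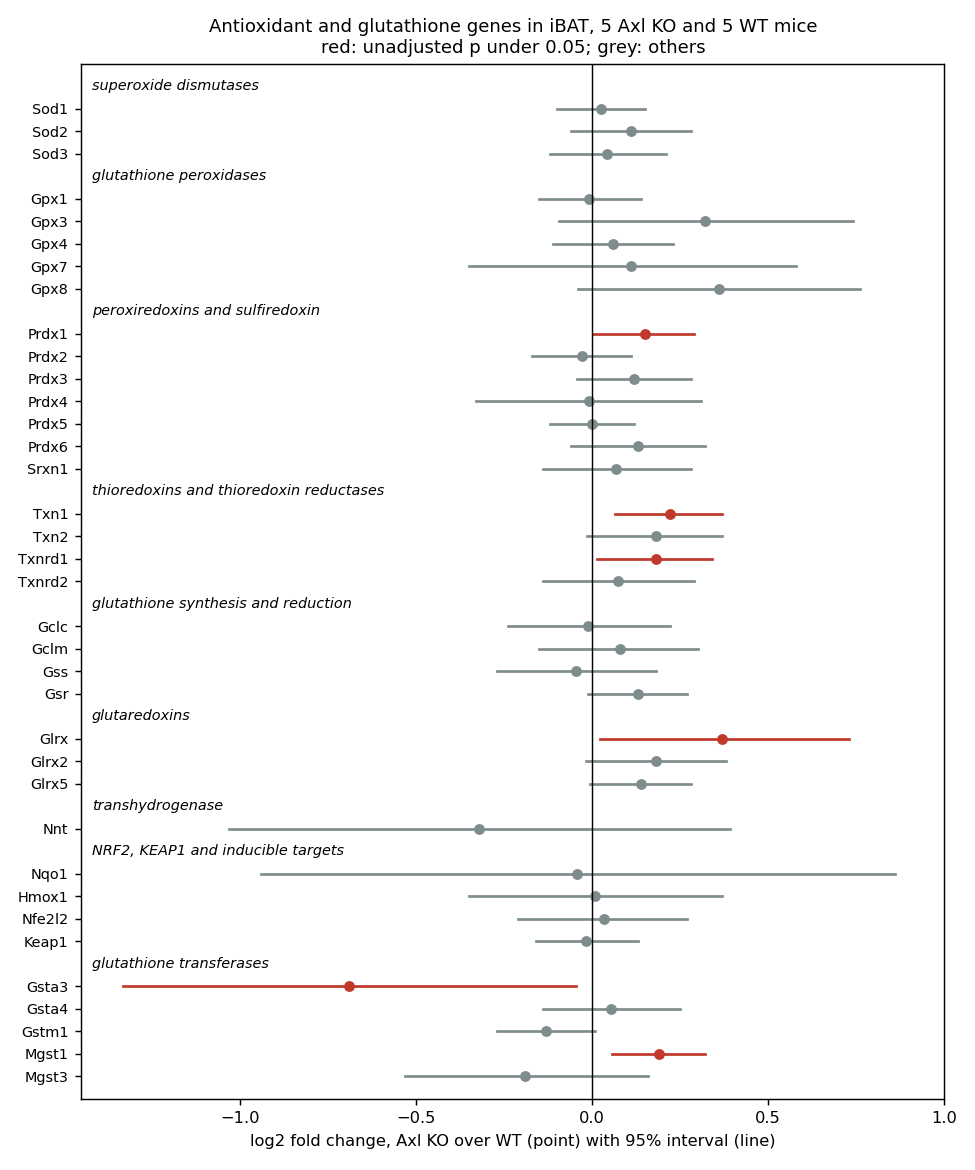
The log2 fold change of each of the 36 genes, Axl KO over WT, with its 95% interval from edgeR's fit over 5 mice per genotype, grouped by role. The 6 genes at an unadjusted p under 0.05 are in red, 5 of them to the right of 0 and Gsta3 to the left, and the other 30 intervals span 0.

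Axl was measured first as a check of the labels. It stood at 2.01, 1.96, 1.75, 0.438 and 1.70 CPM in Axl KO replicates 1 to 5 and at 52.4, 38.3, 41.4, 38.6 and 45.3 CPM in WT replicates 1 to 5 (log2 fold change −4.77, SE 0.20, adjusted p = 1.09e-07). The markers of brown adipocytes were present in every mouse, with summed levels of 9497 to 12756 CPM in Axl KO and 7460 to 9630 CPM in WT mice. All 9 had the higher fitted level in Axl KO mice, with log2 fold changes from 0.015 to 1.67 (median 0.14). The 10 skeletal muscle markers were all lower in Axl KO mice, with sums of 4.97 to 3214 CPM against 745 to 3660 CPM. The 6 fibroblast markers were all lower as well, with sums of 433 to 717 CPM against 628 to 843 CPM. At an unadjusted p under 0.05 stood 5 of the 9 brown adipocyte, 0 of the 10 muscle, 2 of the 6 fibroblast and 1 of the 9 macrophage markers. Of all genes tested, 8.38% stood there. None of these markers passed an adjusted p of 0.05 in edgeR. Of the macrophage, erythroid, endothelial and white adipocyte markers, 5 of 9, 3 of 5, 2 of 5 and 2 of 4 tested genes were higher in Axl KO mice. The summed levels of these lists overlapped between the groups. B and T cell markers summed to at most 1.99 CPM. In whole tissue, fewer cells of a type and less RNA per cell cannot be told apart. With the summed skeletal muscle markers as a covariate, an alternative chosen after seeing the data, 5 members were at an unadjusted p under 0.05 (13.9%, against 6.86% of all genes): Txn1, Mgst1, Gsta3, Gstm1 and Glrx5. Prdx1, Txnrd1 and Glrx were no longer at that threshold, with log2 fold changes of 0.14, 0.17 and 0.36. The log2 fold change of Gsta3 moved from −0.69 to −1.0 (adjusted p = 0.721). No other marker list was used as a covariate.

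Most of these genes were steady across the mice. Together they took 0.573 to 0.663% of the counts of each mouse, and for 29 of the 36 the highest of the 10 mice was less than 2 times the lowest. Levels of different genes were compared only as CPM per kb of the principal transcript in the GENCODE vM21 annotation. On this scale and in WT means, the selenoenzyme Gpx4, which reduces lipid peroxides in membranes, led with 805 CPM per kb, followed by the copper-zinc superoxide dismutase Sod1 with 438 and the membrane-bound transferase Mgst1 with 386. The lowest were Nqo1 with 1.13, Gpx7 with 2.81 and Nnt with 3.38 CPM per kb. The order depended in part on the transcript used: per kb of all annotated exons, Gpx4 still led with 448, whereas Sod1, whose annotated exons span 3970 bases against 641 in its principal transcript, came to 70.7, below Sod2 with 78.6.

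**Figure D2:**
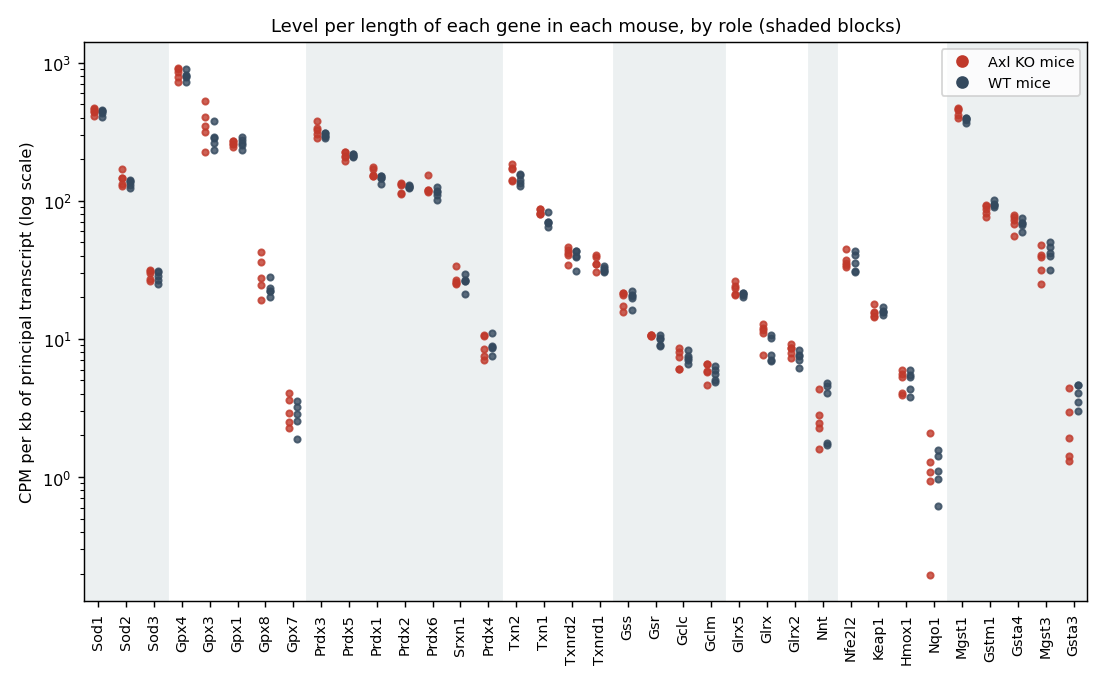
The level of each gene in each mouse in CPM per kb of its principal transcript, on a log scale, with Axl KO mice in red and WT mice in dark blue and the roles in alternating blocks. Gpx4, with a WT mean of 805, and Nqo1, with 1.13, mark the ends of the range, and the points of the 2 genotypes overlap for every gene but Mgst1.

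NRF2 is known to act through antioxidant response elements, so promoters with their core, TGACNNNGC on either strand, are shown for 6 of the members. RefSeq promoters of 300 bases (GRCm38.p6, 250 bases before the start site and 50 after) were matched by symbol for 29 of the 36 genes, and the core was present for 8 of the 29 (27.6%), namely Txnrd1, Prdx1, Srxn1, Gclm, Mgst1, Gsta3, Sod1 and Nfe2l2. Of all 27025 genes with a promoter in that table, 14.0% had it, and of all 32851 promoters 12.4%. The 29 members had 40 promoters, and a gene with more promoters has more chances of a match. The members were also chosen in part around NRF2, so these shares do not test the list. Promoters of Sod3, Nnt, Prdx6, Gsta4, Gsr, Hmox1 and Gclc were not analysed here. The stretches below are printed 5′ to 3′ on the strand of the gene, with the core in capitals. They were chosen because 4 of the 6 genes are among those at an unadjusted p under 0.05 and Srxn1 and Gclm are widely used as NRF2 targets.
Txnrd1, chr10:82859079-82859157, + strand: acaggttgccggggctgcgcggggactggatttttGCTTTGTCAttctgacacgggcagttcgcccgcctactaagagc
Prdx1, chr4:116685431-116685509, + strand: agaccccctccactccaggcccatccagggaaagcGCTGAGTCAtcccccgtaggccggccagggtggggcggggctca
Mgst1, chr6:138140436-138140514, + strand: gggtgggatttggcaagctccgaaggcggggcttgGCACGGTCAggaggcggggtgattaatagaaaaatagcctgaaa
Gsta3, chr1:21240429-21240507, + strand: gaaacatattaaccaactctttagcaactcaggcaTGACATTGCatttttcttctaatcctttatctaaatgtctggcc
Gclm, chr3:122245388-122245466, + strand: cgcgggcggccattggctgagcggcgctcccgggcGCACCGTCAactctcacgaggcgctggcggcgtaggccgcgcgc
Srxn1, chr2:152105517-152105573, + strand: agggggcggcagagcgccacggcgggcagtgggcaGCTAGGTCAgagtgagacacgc
Start sites here are those of the RefSeq table, which can differ from the start of the GENCODE gene. Txnrd1 has 3 promoters in the table, and the one shown starts 25255 bases into the gene. Mgst1 has 2, and the one shown starts 211 bases into it. The core began 92 bases before the start site in Txnrd1, 133 in Prdx1, 56 in Mgst1, 121 in Gsta3 and 134 in Gclm, and 28 bases after it in Srxn1. It lay on the opposite strand in all of these but Gsta3. The match in Prdx1 also holds the AP-1 motif TGACTCA on that strand, which by itself was found, on either strand, in 5.20% of all promoters. These matches describe letters in a window and not binding. Of the genes with a core, Txnrd1, Prdx1 and Mgst1 had the higher level in Axl KO mice at an unadjusted p under 0.05, Gsta3 the lower, and Srxn1, Gclm, Sod1 and Nfe2l2 did not reach it. Of all genes tested, 4.52% were higher and 3.86% lower at that threshold. Txn1 and Glrx, which were higher at that threshold too, had a promoter in the table without the core. A relation of the core to the differences was not tested.

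The superoxide dismutases had nearly the same levels in both genotypes. Sod2 encodes the manganese enzyme of the mitochondrial matrix. It stood at 862, 782, 745, 862 and 990 CPM in Axl KO replicates 1 to 5 and at 769, 824, 723, 807 and 810 CPM in WT replicates 1 to 5. Here 3 of the Axl KO mice lay above every WT mouse and the lowest Axl KO mouse among the WT mice (log2 fold change 0.11, SE 0.0782, adjusted p = 0.707). Sod1, the cytosolic enzyme, was between 262 and 299 CPM in Axl KO mice (299, 284, 262, 287 and 296 in replicates 1 to 5) and between 258 and 291 CPM in WT mice (291, 289, 258, 278 and 288). Its log2 fold change of 0.024 had a 95% interval from −0.10 to 0.15, so that a difference above 1.11-fold lay outside it. Sod3, the extracellular enzyme, had a log2 fold change of 0.043 (interval −0.12 to 0.21).

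Among the glutathione peroxidases, the extracellular Gpx3 and the endoplasmic reticulum enzyme Gpx8 had the largest differences, with wide spreads. Gpx4, the member with the most counts per length, was at 885, 868, 701, 818 and 752 CPM in Axl KO replicates 1 to 5 and at 866, 778, 695, 760 and 763 CPM in WT replicates 1 to 5. The groups overlapped over nearly their whole range (log2 fold change 0.059, interval −0.11 to 0.23). Gpx1, the cytosolic selenoenzyme, had a log2 fold change of −0.0092 (interval −0.15 to 0.14), and Gpx7, another enzyme of the endoplasmic reticulum, one of 0.11 on 14 to 36 counts per mouse (interval −0.35 to 0.58). For Gpx3 the log2 fold change was 0.32 (SE 0.192, adjusted p = 0.653) and for Gpx8 0.36 (SE 0.184, adjusted p = 0.609), and for each of these genes the lowest of the 10 mice and the highest were both Axl KO mice.

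Of the peroxiredoxins, the cytosolic Prdx1 was at an unadjusted p under 0.05. The gene (ENSMUSG00000028691, chromosome 4 of GRCm38 from 116685544 to 116700822, forward strand) stood at 403, 348, 354, 348 and 390 CPM in Axl KO replicates 1 to 5 and at 334, 338, 302, 348 and 345 CPM in WT replicates 1 to 5. In all, 4 Axl KO mice lay above every WT mouse, and the lowest of the Axl KO mice was level with WT replicate 4. The level in Axl KO mice was 1.11 times that in WT mice (log2 fold change 0.15, SE 0.0652, p = 0.0449, adjusted p = 0.588), with p = 0.0159 in a two-sided exact permutation test of the 10 log2 values. Prdx3, the peroxiredoxin of the mitochondrial matrix and the one with the most counts per length (299 CPM per kb in WT mice), was at 494, 447, 419, 484 and 557 CPM in Axl KO replicates 1 to 5 and at 433, 459, 423, 455 and 439 CPM in WT replicates 1 to 5. Its SD was 52.7 CPM among Axl KO and 14.8 CPM among WT mice, and Axl KO mice held both the highest and the lowest value (log2 fold change 0.12, SE 0.0746). The cytosolic Prdx2 (log2 fold change −0.03), the endoplasmic reticulum enzyme Prdx4 (−0.01) and Prdx5 (0.00098) were close to 0, with intervals of −0.17 to 0.11, −0.33 to 0.31 and −0.12 to 0.12. Prdx6, which also has phospholipase activity, had a log2 fold change of 0.13 (interval −0.06 to 0.32), and Srxn1, the sulfiredoxin that restores overoxidized peroxiredoxins, one of 0.069 (interval −0.14 to 0.28). The highest value of Prdx6 (367 CPM) and of Srxn1 (94.7 CPM) lay in Axl KO replicate 5, with the next of the 10 mice at 301 and 82.8 CPM, both WT. Without strand information, 19.1% of the exon bases of Prdx5 cannot be told apart from Trmt112 on the other strand, and 5.7 and 5.8% of those of Prdx2 from Junb and Rnaseh2a.

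All 4 genes of the thioredoxin system had the higher fitted level in Axl KO mice, with log2 fold changes from 0.074 to 0.22, and for 2 of them, Txn1 and Txnrd1, the unadjusted p was under 0.05. Txn1 (ENSMUSG00000028367, chromosome 4 of GRCm38 from 57943373 to 57956411, reverse strand) encodes cytosolic thioredoxin, the electron donor of Prdx1 and Prdx2. It was at 92.1, 91.3, 83.8, 85.3 and 84.5 CPM in Axl KO replicates 1 to 5 and at 87.8, 73.6, 68.0, 73.9 and 72.5 CPM in WT replicates 1 to 5. WT replicate 1 lay among the Axl KO mice, and the other 4 WT mice lay below all of them. The level in Axl KO mice was 1.16 times that in WT mice (log2 fold change 0.22, SE 0.0698, p = 0.00842, adjusted p = 0.572; exact permutation p = 0.0317). Txnrd1, the selenoenzyme that reduces Txn1 with NADPH and whose promoter is printed above (ENSMUSG00000020250, chromosome 10 of GRCm38 from 82833951 to 82897712, forward strand), was at 131, 116, 102, 116 and 135 CPM in Axl KO replicates 1 to 5 and at 112, 105, 102, 108 and 103 CPM in WT replicates 1 to 5. Again 4 Axl KO mice lay above all WT mice, and replicate 3 was the lowest of the 10 (1.13 times the WT level, log2 fold change 0.18, SE 0.0753, p = 0.0346, adjusted p = 0.572; exact permutation p = 0.0714). Per kb of the principal transcript, the mitochondrial thioredoxin Txn2 led this group. Per kb of all annotated exons it came to 44 CPM in WT mice, below Txn1 with 71.5. Txn2 was at 226, 183, 182, 219 and 239 CPM in Axl KO replicates 1 to 5 and at 175, 202, 165, 199 and 184 CPM in WT replicates 1 to 5. For this gene 3 Axl KO mice lay above the WT mice and the other 2 among them (log2 fold change 0.18, SE 0.0899, adjusted p = 0.606). Txnrd2, the mitochondrial reductase, had a log2 fold change of 0.074 (interval −0.14 to 0.29).

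The glutaredoxins, which use glutathione to reduce mixed disulfides or to carry iron-sulfur clusters, were all 3 higher in the fit for Axl KO mice (log2 fold changes 0.14 to 0.37). Glrx, the cytosolic enzyme (ENSMUSG00000021591, chromosome 13 of GRCm38 from 75839868 to 75850154, forward strand), stood at 14.8, 16.1, 10.3, 15.5 and 17.2 CPM in Axl KO replicates 1 to 5 and at 9.44, 9.23, 13.6, 14.3 and 10.3 CPM in WT replicates 1 to 5. Axl KO replicate 3 lay among the WT mice and the other 4 above them (1.30 times the WT level, log2 fold change 0.37, SE 0.163, p = 0.0393, adjusted p = 0.580; exact permutation p = 0.0635). Glrx5, which takes part in the assembly of iron-sulfur clusters in mitochondria, was at 68.3, 61.3, 62.3, 70.2 and 76.4 CPM in Axl KO replicates 1 to 5 and at 61.1, 63.1, 62.3, 58.4 and 62.4 CPM in WT replicates 1 to 5. Its WT values spanned a narrow range and 3 Axl KO mice lay above it (log2 fold change 0.14, SE 0.0658, adjusted p = 0.602). Glrx2, another mitochondrial glutaredoxin, had a log2 fold change of 0.18 (SE 0.0905, adjusted p = 0.608).

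**Figure D3:**
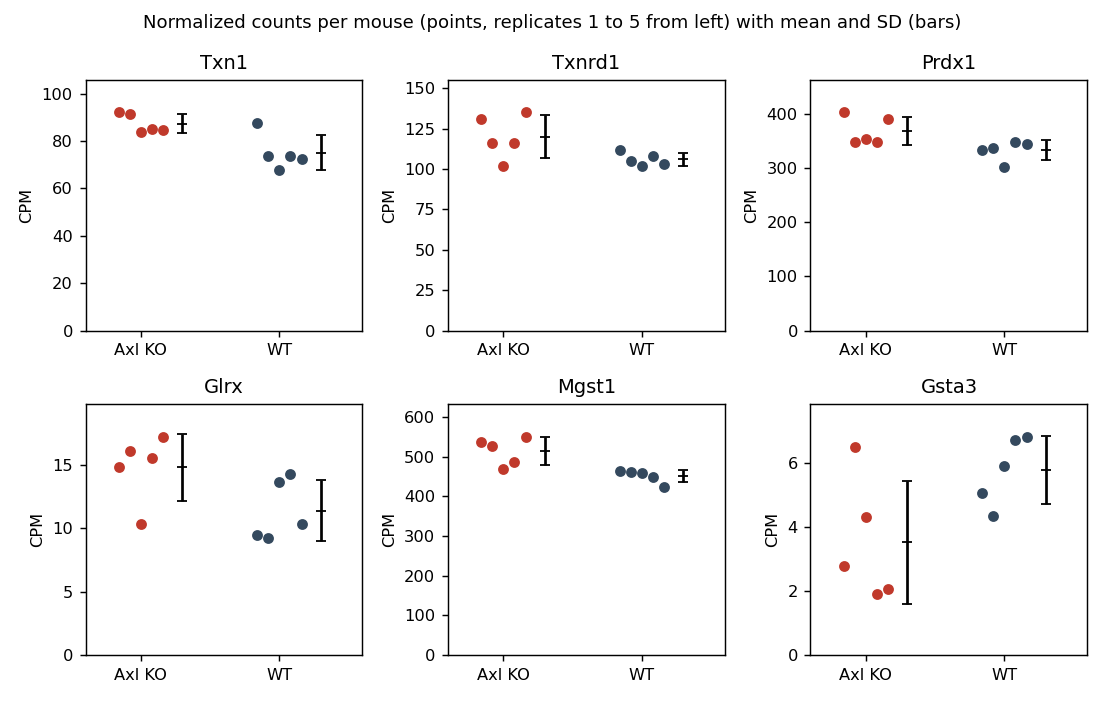
Normalized counts (CPM) per mouse of the 6 genes at an unadjusted p under 0.05, with points for replicates 1 to 5 from left to right and the mean and SD (n = 5) beside them. The groups are apart only for Mgst1, with a lowest Axl KO value of 468 and a highest WT value of 463 CPM.

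Glutathione synthesis and reduction showed small differences in both directions. Gclc encodes the catalytic subunit of the enzyme that sets the rate of glutathione synthesis. It was at 27.4, 29.5, 25.3, 20.9 and 20.7 CPM in Axl KO replicates 1 to 5 and at 28.3, 25.6, 23.9, 25.0 and 22.6 CPM in WT replicates 1 to 5. Axl KO replicates 4 and 5 were the lowest of the 10 mice and replicate 2 the highest (log2 fold change −0.013, interval −0.24 to 0.22). Gss, glutathione synthetase, the member of this group with the most counts per length, was at 30.6, 42.0, 40.5, 42.3 and 33.8 CPM in Axl KO replicates 1 to 5 and at 32.0, 43.3, 40.8, 40.3 and 39.1 CPM in WT replicates 1 to 5, and these ranges nearly coincided (log2 fold change −0.045, interval −0.27 to 0.18). On the other strand Acss2, Gssos1 and Gssos2 overlap 6.7, 5.4 and 6.5% of its exon bases, and per kb of all annotated exons Gss came to 6.61 CPM in WT mice, below Gsr with 9.40. The modifier subunit Gclm had a log2 fold change of 0.078 (interval −0.15 to 0.30). Gsr, glutathione reductase, was nearly constant among Axl KO mice (28.2 ± 0.266 CPM, SD, n = 5, against 25.9 ± 2.00 CPM in WT mice, log2 fold change 0.13, SE 0.0651, adjusted p = 0.608; exact permutation p = 0.0238).

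The 4 genes listed here as NRF2, KEAP1 and inducible targets had the smallest fitted differences of any role, with log2 fold changes from −0.043 to 0.034. They do not stand for NRF2 targets in general. Srxn1 and Gclm, widely used as NRF2 targets, were listed under other roles, with log2 fold changes of 0.069 and 0.078. So were Txnrd1 (0.18) and Prdx1 (0.15), for which the core was found in a promoter. Nfe2l2, which encodes NRF2, stood at 92.9, 81.8, 84.9, 87.2 and 110 CPM in Axl KO replicates 1 to 5 and at 99.6, 107, 76.4, 87.9 and 75.0 CPM in WT replicates 1 to 5. Axl KO replicate 5 was the highest and WT replicate 5 the lowest, with the rest interleaved (log2 fold change 0.034, interval −0.21 to 0.27). Keap1, its inhibitor, had a log2 fold change of −0.018 (interval −0.16 to 0.13), with 10.9% of its exon bases under an antisense gene. Hmox1, the heme oxygenase, was at 6.34, 8.74, 9.34, 6.13 and 8.30 CPM in Axl KO replicates 1 to 5 and at 8.62, 6.79, 5.91, 8.27 and 9.33 CPM in WT replicates 1 to 5. The mice of both genotypes covered the same range (log2 fold change 0.0079, interval −0.35 to 0.37). Nqo1, a quinone reductase that serves as a standard readout of NRF2 activity, was near the filter on low counts in this tissue. It was at 1.70, 0.301, 1.99, 1.46 and 3.21 CPM in Axl KO replicates 1 to 5 and at 2.19, 0.955, 2.43, 1.72 and 1.51 CPM in WT replicates 1 to 5, on 2 to 21 counts per mouse. The log2 fold change of −0.043 (SE 0.414) had an interval from −0.94 to 0.86, which spans levels of 0.521 to 1.81 times that in WT mice, and a difference within it was not detectable in these libraries. Nqo1 also moved with the skeletal muscle markers, with Pearson's r of the log2 values 0.76 (permutation p = 0.0163) and Spearman's rho 0.87 (permutation p = 0.00242) over the 10 mice, and adjusted p of 0.257 and 0.228 over 252 relations of members with marker lists. Its r was 0.82 within genotypes and 0.79 without Axl KO replicates 1 and 2, the mice farthest from the median muscle sum. With the muscle sum as a covariate its log2 fold change was 0.49 (SE 0.334, adjusted p = 0.795).

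The glutathione transferases included both the member with the clearest separation and the only one at an unadjusted p under 0.05 in the other direction. Mgst1, a microsomal transferase that also reduces lipid peroxides (ENSMUSG00000008540, chromosome 6 of GRCm38 from 138140316 to 138156755, forward strand), was at 537, 528, 468, 486 and 550 CPM in Axl KO replicates 1 to 5 and at 463, 461, 458, 449 and 424 CPM in WT replicates 1 to 5. Each Axl KO mouse lay above each WT mouse, the nearest being at 468 and 463 CPM (1.14 times the WT level, log2 fold change 0.19, SE 0.0612, p = 0.00918, adjusted p = 0.572; exact permutation p = 0.00794, the smallest that 5 against 5 mice allow). Gsta3, a cytosolic transferase of the alpha class (ENSMUSG00000025934, chromosome 1 of GRCm38 from 21240589 to 21265661, forward strand), was at 2.78, 6.48, 4.32, 1.90 and 2.07 CPM in Axl KO replicates 1 to 5 and at 5.06, 4.35, 5.91, 6.72 and 6.81 CPM in WT replicates 1 to 5, on 11 to 54 counts per mouse. Here 4 Axl KO mice lay below all WT mice, whereas replicate 2 lay among them (0.622 times the WT level, log2 fold change −0.69, SE 0.295, p = 0.0375, adjusted p = 0.572; exact permutation p = 0.0476). The alpha-class genes are close relatives, and how reads that match several of them were counted is not given in the sources used here. Gstm1, an abundant mu-class enzyme, had a log2 fold change of −0.13 (SE 0.0648, adjusted p = 0.602), the membrane enzyme Mgst3 one of −0.19 (SE 0.161) and Gsta4, which conjugates lipid aldehydes, one of 0.053 (SE 0.0906).

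Nnt, the mitochondrial transhydrogenase that makes NADPH from NADH (ENSMUSG00000025453, chromosome 13 of GRCm38 from 119335448 to 119408997, reverse strand), was low and uneven. It stood at 5.57, 7.83, 9.70, 8.46 and 15.1 CPM in Axl KO replicates 1 to 5 and at 14.0, 6.15, 15.8, 16.7 and 5.93 CPM in WT replicates 1 to 5. Both genotypes had mice near 6 and near 15 CPM, and the log2 fold change of −0.32 (SE 0.327) had an interval from −1.03 to 0.39. The summed skeletal muscle markers in the same mice were 21.3, 4.97, 1607, 563 and 3214 CPM in Axl KO and 3043, 776, 3660, 2967 and 745 CPM in WT replicates 1 to 5. The 4 mice with the highest sums were the 4 with the most Nnt. Over the 10 mice, Pearson's r between log2 Nnt and the log2 muscle sum was 0.65 (permutation p = 0.0322) and Spearman's rho 0.79 (permutation p = 0.00921), with adjusted p of 0.28 and 0.228 over the 252 relations of the 36 members with 7 marker lists. Without the 2 mice farthest from the median muscle sum, Axl KO replicates 1 and 2, r was 0.92, and within genotypes it was 0.64. Of the 252 relations, 0 had an adjusted p under 0.05 for r, and this was not the strongest of them. For example, r was −0.82 for Prdx5 with the macrophage markers and −0.82 for Glrx with the white adipocyte markers (adjusted p = 0.121 each). With the muscle sum as a covariate, the log2 fold change of Nnt was 0.10 (SE 0.299). C57BL/6J mice, the strain of the reference genome, are known to carry a deletion within Nnt, and the labels do not give the substrain of these mice. The study lists C57BL6/N among its animals, beside the Axl null mice, and names C57Bl6J for its pharmacological experiments. It gives no substrain for the Axl null mice or for the C57Bl6 mice used to breed them. A second gene model of the same symbol shares 47.4% of the exon bases of Nnt and was not analysed here.

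**Figure D4:**
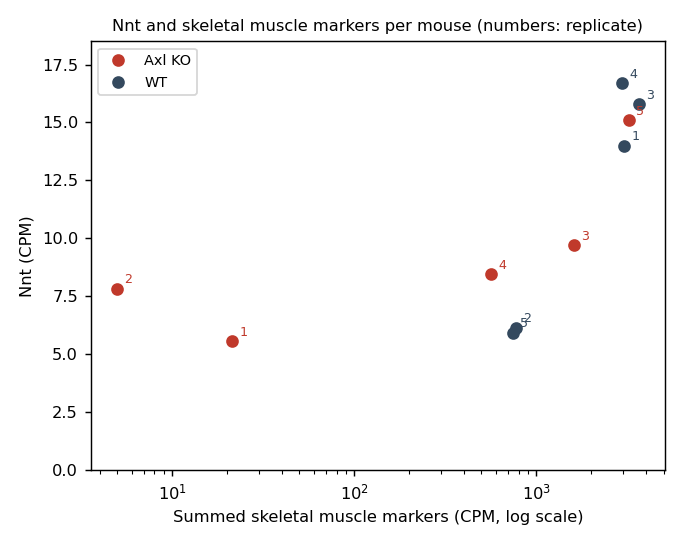
Nnt (CPM) against the summed level of 10 skeletal muscle markers (CPM, log scale) in each mouse, with Axl KO mice in red, WT mice in dark blue and the replicate number beside each point. The 4 mice to the right, at 2967 CPM of muscle markers and above, hold the 4 highest Nnt values, from 14.0 to 16.7 CPM.

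Some members varied together across the mice. Over the 630 pairs of members, examined after the values had been seen, 4 passed an adjusted p of 0.05. Of these, 3 joined Sod2, Prdx3 and Txn2, which act in the mitochondrial matrix as the source of peroxide, the enzyme that removes it and the donor that recharges that enzyme. Pearson's r of the log2 values over the 10 mice was 0.97 for Sod2 and Prdx3 (permutation p = 3e-05, adjusted p = 0.00945), with Spearman's rho 0.94 (permutation p = 0.00017, adjusted p = 0.0268). For Sod2 and Txn2, r was 0.94 (permutation p = 1e-05, the smallest that 100000 resamples give, adjusted p = 0.0063) and rho 0.96 (permutation p = 8e-05, adjusted p = 0.021). For Prdx3 and Txn2, r was 0.93 (permutation p = 5e-05, adjusted p = 0.0105) and rho 0.95 (permutation p = 1e-04, adjusted p = 0.021). Without the 2 mice farthest from the median of the first gene, these r were 0.95, 0.91 and 0.91, and within genotypes they were 0.97, 0.93 and 0.91. All 3 genes were highest in Axl KO replicate 5, the mouse with the highest summed brown adipocyte markers and the smallest library. Ucp1 weighed most in that sum, with 7648 of its 12756 CPM in this mouse. Ucp1, Cox7a1, Dio2, Elovl3 and Plin5 were at their highest of the 10 mice there. Cidea was at its lowest (1504 CPM) and Ppargc1a (56.9 CPM) near its lowest. The r with the log2 sum of the 9 markers was 0.86 for Sod2, 0.84 for Prdx3 and 0.87 for Txn2 (permutation p = 0.00166, 0.00184 and 0.00059). The rho were 0.78, 0.82 and 0.82 (permutation p = 0.00995, 0.00582 and 0.00539), and adjusted p over the 252 relations of 0.121 for each r and 0.228 for each rho. Without Axl KO replicate 5 and WT replicate 3 those r were 0.54, 0.60 and 0.69. The fibroblast markers moved with the same genes in the other direction, with r of −0.82 for Sod2, −0.80 for Prdx3 and −0.80 for Txn2 (permutation p = 0.00261, 0.00528 and 0.00509, adjusted p = 0.121 each). The rho were −0.73, −0.76 and −0.76 (permutation p = 0.0187, 0.0138 and 0.0138, adjusted p = 0.257, 0.249 and 0.249), and the r were −0.52, −0.47 and −0.56 without Axl KO replicates 4 and 5. For the white adipocyte markers r was −0.65, −0.72 and −0.59 and rho −0.47, −0.59 and −0.48 (permutation p for r 0.0402, 0.0163 and 0.0744, for rho 0.176, 0.079 and 0.163, adjusted p at least 0.257). Without Axl KO replicate 5 and WT replicate 4, that r was −0.28, −0.45 and −0.30. The 6 genes at an unadjusted p under 0.05 between genotypes were also set against the brown adipocyte sum. For Prdx1, Txnrd1, Mgst1, Glrx, Txn1 and Gsta3, r was 0.75, 0.69, 0.66, 0.57, 0.44 and −0.67 (adjusted p at least 0.257). Within genotypes these r were 0.55, 0.47, 0.26, 0.28, −0.16 and −0.41. That sum was not tested as a covariate.

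The other pair was Gpx3 and Gpx8, named here after their values were seen. Gpx3 was at 838, 559, 358, 500 and 645 CPM in Axl KO replicates 1 to 5 and at 372, 418, 608, 465 and 453 CPM in WT replicates 1 to 5. Gpx8 followed it with 44.7, 28.9, 20.1, 25.4 and 37.7 CPM in Axl KO replicates 1 to 5 and 23.3, 23.1, 29.3, 24.5 and 20.9 CPM in WT replicates 1 to 5. In both genes Axl KO replicate 1 was highest, Axl KO replicate 5 next and Axl KO replicate 3 lowest, and WT replicate 3 was the highest of the WT mice. Pearson's r was 0.94 (permutation p = 1e-04, adjusted p = 0.0157) and Spearman's rho 0.95 (permutation p = 1e-04, adjusted p = 0.021), with r = 0.86 without Axl KO replicates 1 and 3 and 0.93 within genotypes.

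**Figure D5:**
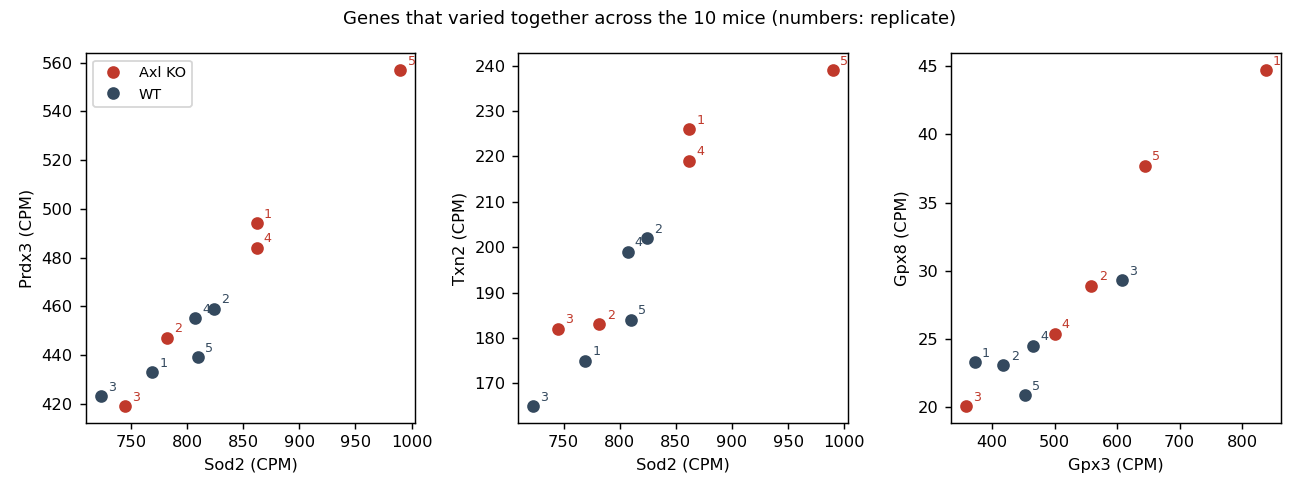
CPM of 3 pairs of genes in the 10 mice, with Axl KO mice in red, WT mice in dark blue and the replicate number beside each point. Prdx3 and Txn2 rise with Sod2 (r of the log2 values 0.97 and 0.94) up to Axl KO replicate 5 at the upper end, and Gpx8 rises with Gpx3 (r = 0.94) up to Axl KO replicate 1.

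The mice did not contribute evenly to these levels. Axl KO replicate 5, with 5431014 counts, was the highest of the 10 mice for 14 of the 36 genes, and WT replicate 3, with the lowest summed brown adipocyte markers (7460 CPM), was the lowest for 12. By the place lists used here, 6 of the 7 members listed as mitochondrial had the higher fitted level in Axl KO mice (median log2 fold change 0.12). So did 4 of the 5 listed as secreted or in the endoplasmic reticulum (median 0.11), and none of these passed the test. Prdx5 and the membrane enzymes Mgst1 and Mgst3 were in neither list, with log2 fold changes of 0.00098, 0.19 and −0.19. When single mice were left out, the number of members at an unadjusted p under 0.05 ranged from 2 (5.56%, against 5.93% of all genes) without Axl KO replicate 1 to 11 (30.6%, against 14.8%) without Axl KO replicate 3. It was 3 (8.33%, against 7.10%) without Axl KO replicate 5, namely Txn1, Mgst1 and Gstm1. Without replicate 1 or 5 the share of members was close to that of all genes. Txn1 and Mgst1 were at an unadjusted p under 0.05 in each of the 10 fits, and their log2 fold changes lay between 0.18 and 0.28 and between 0.16 and 0.22. The counts for the other 4 genes were 5 of 10 fits for Prdx1 and for Txnrd1, 4 for Gsta3 and 3 for Glrx.

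Genes around these members were taken from 8 further lists with 93 genes, of which 83 were tested. Again 0 passed an adjusted p of 0.05 in edgeR and 0 in DESeq2, 4 were higher and 7 lower in Axl KO mice at an unadjusted p under 0.05 (13.3% of those tested, against 8.38% of all genes), and the median log2 fold change was 0.0074. In the list of thioredoxin partners and methionine sulfoxide reductases, 2 of 14 were higher and 3 lower at that threshold. Sesn3, a sestrin, was 35.3 ± 2.64 CPM in Axl KO and 43.4 ± 2.05 CPM in WT mice (SD, n = 5 each), without overlap (log2 fold change −0.30, SE 0.0647, adjusted p = 0.572). The iron-sulfur glutaredoxin Glrx3 was 150 ± 10.2 CPM in Axl KO and 132 ± 4.43 CPM in WT mice, also without overlap (log2 fold change 0.18, SE 0.0585). Txndc12, a thioredoxin-like protein of the endoplasmic reticulum, had a log2 fold change of 0.17 (SE 0.0729).

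Among 18 NRF2 partners, regulators and further targets, 2 were higher and 3 lower at an unadjusted p under 0.05, where 4.52% of all genes tested were higher and 3.86% lower. Rbx1, a subunit of the ubiquitin ligase that works with KEAP1, was 49.0 ± 3.72 CPM in Axl KO and 42.8 ± 1.82 CPM in WT mice, without overlap (log2 fold change 0.19, SE 0.0634, adjusted p = 0.572). Ftl1, the ferritin light chain, had a log2 fold change of 0.24 (SE 0.0936) and the carbonyl reductase Cbr3 one of −0.48 (SE 0.185). Whatever their p, 6 of the 18 had the higher and 12 the lower fitted level in Axl KO mice (median log2 fold change −0.049). Of 12 tested genes of glutathione turnover and transport, Chac2, which degrades glutathione, was lower at that threshold (log2 fold change −0.30, SE 0.131, adjusted p = 0.580) and 0 were higher. At the same threshold 0 genes stood among the 10 that supply NADPH, the 15 tested further glutathione transferases, the 6 tested oxidant sources, the 7 genes of selenoprotein synthesis and selenium supply, and catalase, the only tested gene of its list.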

How the data were processed

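RNA of iBAT from 5 Axl KO and 5 WT mice was analysed. The authors deposited 1 table of raw read counts per gene and mouse, without normalization or pooling. The sources differ on how these were made: the study's methods name rRNA depletion, Trim Galore and hisat2, whereas the labels name polyA RNA, and the submitters' processing notes list Trimmomatic 0.36, STAR 2.6.1c and DESeq2, with GRCm38 in both. The counting tool, its strand setting and how it handled reads matching several genes are not given in the sources used here, so overlapping genes and close relatives are uncertain.

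Symbols, positions and lengths were taken from GENCODE vM21 (GRCm38), where 41163 of the 41249 identifiers were found. Genes with a mean above 1 CPM (13739) were compared in R 4.3.3 with edgeR 4.0.16 (TMM, quasi-likelihood test, Benjamini-Hochberg adjustment over all genes tested), and DESeq2 1.42.0 was an alternative. CPM are TMM-normalized counts. The variation between mice of a genotype was 14.8% in this model. Any 2 libraries of the same genotype differed by a chi-square of at least 5.77 per gene, so that none was a copy of another. Each mouse was counted as 1 replicate by its label, which the chi-square cannot show. The procedure was tested on simulated data. Single genes were also compared by two-sided exact permutation tests over the 252 splits, on log2(CPM + 0.5). Correlations used 100000 permutations of log2(CPM + 0.5) in scipy 1.17.1, and marker lists their log2 summed CPM.

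The members, lists and tests were chosen with earlier results of these data known. Values in every mouse are given for Axl, for members at an unadjusted p under 0.05 or without overlap, for the member of each role with the most counts per length, and for Nnt, Nfe2l2, Nqo1, Hmox1, Gclc and Sod2; of each further list at most 3 genes are named, those with the lowest unadjusted p under 0.05. Alternatives were DESeq2, RLE size factors, filterByExpr, no filter, a robust fit, the replicate number as a block, each mouse left out and, added later, the skeletal muscle sum as a covariate. Protein sequences were not analysed here. The total count per mouse limits the precision of genes with few counts.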

Additional observations from a re-analysis of the deposited data

Results flagged for a closer look

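Of 74 groups of 5 values (36 members and Axl in each genotype), 3 held a mouse whose distance to its nearest neighbour took up more than 0.71 of the range of the group; chance gives about 1 in 20 such groups, or 3.7 here. Prdx6 was at 367 CPM in Axl KO replicate 5, with the next mouse of the group at 286 CPM. Srxn1 was at 94.7 CPM in the same mouse, with the next of the group at 74.7 CPM. Axl was at 0.438 CPM in Axl KO replicate 4, with the next at 1.70 CPM, on 3 counts.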

How the results depend on the processing

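No member had an adjusted p under 0.05 in any of the 17 alternatives, and Axl kept its call in each. The number of genes past the threshold was 9 with DESeq2 and 1 in every other alternative. At an unadjusted p under 0.05 stood 6 members with DESeq2, RLE size factors, filterByExpr, no filter and the robust fit, 5 with the skeletal muscle covariate (13.9%, against 6.86% of all genes) and 2 to 11 with single mice left out. With the replicate number as a block the number was 3 (Txn1, Txnrd1 and Mgst1, 8.33% against 7.64% of all genes). Same-numbered mice of the 2 genotypes correlated between −0.355 and 0.369, which does not show a pairing by number. A shared litter or batch was not tested. The median log2 fold change of the members lay between 0.043 and 0.10 in all alternatives. Members without overlap numbered 2 with no filter (Mgst1 and Prdx1) and 1 to 3 with single mice left out; Mgst1 was among them each time.

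Of the 612 alternative fold changes of single members, 569 kept the direction and 43 reversed it, over 16 members; none of the 612 passed the threshold. With the block, Prdx5 was at −0.00096. With the muscle covariate, the log2 fold change was −0.034 for Gpx4, −0.16 for Gpx7, −0.036 for Prdx5, 0.49 for Nqo1, 0.018 for Keap1 and 0.10 for Nnt. With single mice left out it ranged from −0.0051 to 0.053 for Sod1, −0.051 to 0.03 for Gpx1, −0.012 to 0.20 for Gpx7, −0.059 to 0.0073 for Prdx2, −0.09 to 0.078 for Prdx4, −0.021 to 0.032 for Prdx5, −0.00029 to 0.13 for Txnrd2, −0.083 to 0.043 for Gclc, −0.11 to 0.022 for Gss, −0.33 to 0.22 for Nqo1, −0.079 to 0.085 for Hmox1, −0.042 to 0.11 for Nfe2l2, −0.069 to 0.011 for Keap1 and −0.016 to 0.12 for Srxn1. The cause of these shifts was not tested. Nqo1, Gpx7 and Gsta3, with at most 54 counts in a mouse, are limited most by depth.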
